A study of Oryza sativa Japonica Group and Oryza sativa Indica Group with 20 samples.

Results

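Rice carries 6 loci for DNA glycosylases of the ROS1 and DML3 classes, and their transcripts were followed here from the embryo through callus culture to regeneration. The loci were taken by identifier from the table of 54170 loci: ROS1a (LOC_Os01g11900), ROS1b (LOC_Os02g29230), ROS1c (LOC_Os05g37350), ROS1d (LOC_Os05g37410), DML3a (LOC_Os02g29380) and DML3b (LOC_Os04g28860). All 6 were found, each on a single row, and 4 of them passed a filter of at least 1 FPKM in at least 2 libraries. FPKM is a fragment count scaled to gene length and to the mapped fragments of a library, so levels of different genes can be set side by side. No sequence of these loci was used here.

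The plants were TNG67 (Tainung 67), a japonica rice, and IR64 (Indica Rice 64), an indica rice, with no transgene or mutation named in the labels. In each cultivar RNA came from the embryo (T0), from callus induced on auxin medium (T1), from callus after subculture (T2), and from calli that failed (TF) or succeeded (TS) to regenerate. T1 and T2 grew with the synthetic auxin 2,4-D at 2.5 mg/L, and TF and TS shared a regeneration medium with the auxin NAA at 0.02 mg/L plus BAP, a cytokinin, at 2 mg/L. Each cultivar and stage had 1 RNA library, 10 in all, and the labels do not say how many embryos or calli were pooled in it. The identity of embryo and callus could not be checked on marker genes, because the table pairs no identifier with a gene name.

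ROS1 and DML3 proteins are bifunctional DNA glycosylases. They cut 5-methylcytosine out of DNA and nick the strand, after which base excision repair fills the gap with unmethylated cytosine. Plants use this route to remove methylation without DNA replication, chiefly near genes and transposons. Grasses have no counterpart of the Arabidopsis enzyme DEMETER, and rice ROS1a is known for its part in pollen and endosperm. ROS1c, also called DNG701, demethylates the retrotransposon Tos17, an element known to become mobile in rice tissue culture.

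Sequencing depth was unknown, since the file holds no counts. Summed FPKM ran from 602209 in IR64 T2 to 1063010 in TNG67 T0, apart from 3792960 in IR64 T0. In that embryo library 1 locus, LOC_Os12g13870, was listed at exactly 3000000 FPKM, and without it the sum was 792962. Median-ratio size factors of the 10 libraries ran from 0.960 to 1.05, and IR64 T0 had 0.998. Summed FPKM was larger in each embryo than in the calli of its cultivar, also without that locus. Rescaling to these sums was not tried, and it would make falls from embryo to callus smaller. RNA came from bulk tissue, where fewer cells of a type and less RNA per cell cannot be told apart.

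ROS1a was the most abundant of the 6 in the embryo and fell in callus in both cultivars. In TNG67 it stood at 22.3 FPKM in T0, 8.81 in T1, 8.48 in T2, 7.60 in TF and 9.68 in TS. In IR64 it stood at 18.9 FPKM in T0, 7.93 in T1, 8.38 in T2, 8.89 in TF and 8.72 in TS. The embryos lay above every callus, and the 8 calli of both cultivars formed a single narrow band from 7.60 to 9.68 FPKM. Among loci listed above 0 in their library, ROS1a exceeded 59.8 to 64.1% in the calli, against 78.1% in the TNG67 embryo and 77.7% in the IR64 embryo.

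The fall of ROS1a was tested with limma on log2(FPKM + 1) over all 22913 loci that passed the filter, with cultivar and stage as terms. The mean of the 4 callus stages minus the embryo was -1.18 on that scale (SE 0.17, 95% interval -1.58 to -0.77, limma adjusted p = 0.0046), lower in 8 of 8 calli, 4 of them set against each embryo library. It was called under all 20 alternatives tried, with limma adjusted p of 0.0030 to 0.020. None of these rescaled the libraries to their summed FPKM. ROS1a was 1 of 4 glycosylase loci called in this comparison, where 33.1% of all loci were called. A share of that size is near the background, so the count says nothing particular about the family. The spread limma used is how far TNG67 and IR64 strayed from a shared effect of stage, with 4 residual degrees of freedom, and not the spread between cultures.

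Taken stage by stage, ROS1a also fell at each callus stage against the embryo, and it was again the 1 called locus of 4. Background calls were 26.3% of loci for T1, 20.5% for T2, 18.3% for TF and 15.5% for TS. The log2 change was -1.20 in T1 (limma adjusted p = 0.012), -1.19 in T2 (limma adjusted p = 0.014), -1.23 in TF (limma adjusted p = 0.016) and -1.08 in TS (limma adjusted p = 0.025), each with an SE of 0.21. These single-stage calls set the 2 libraries of a stage against the 2 embryos, and were lost when either library of the stage was left out. For T1, limma adjusted p became 0.058 without TNG67 T1 and 0.077 without IR64 T1. For T2 it became 0.13 without TNG67 T2 and 0.12 without IR64 T2. For TF it became 0.11 without TNG67 TF, 0.052 without IR64 TF and 0.0502 without TNG67 T2. For TS, leaving out TNG67 TS gave 0.14 and leaving out IR64 TS gave 0.16, and it became 0.071 without TNG67 T2 and 0.070 without IR64 T2. Without cultivar as a replicate block the TS value was 0.064 (limma adjusted p).

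The 2 cultivars followed a common course in ROS1a more closely than most loci did. Its residual SD around the common stage effect was 0.12 on the log2 scale, and only 5.18% of tested loci had a lower one. The corresponding percentages were 16.8% for ROS1c, 47.3% for DML3a and 48.0% for ROS1d. The change of ROS1a from embryo to callus differed between TNG67 and IR64 by -0.21 (SE 0.28, limma adjusted p = 0.69). This difference was smaller than its error, and its 95% interval ran from -0.84 to 0.42. For each gene, this test of a difference between cultivars took the callus stages of a cultivar as its replicates, against a single embryo library. Its p therefore measures steadiness of the calli over stages. A missing call does not show that the change was the same in both cultivars.

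**Figure D1:**
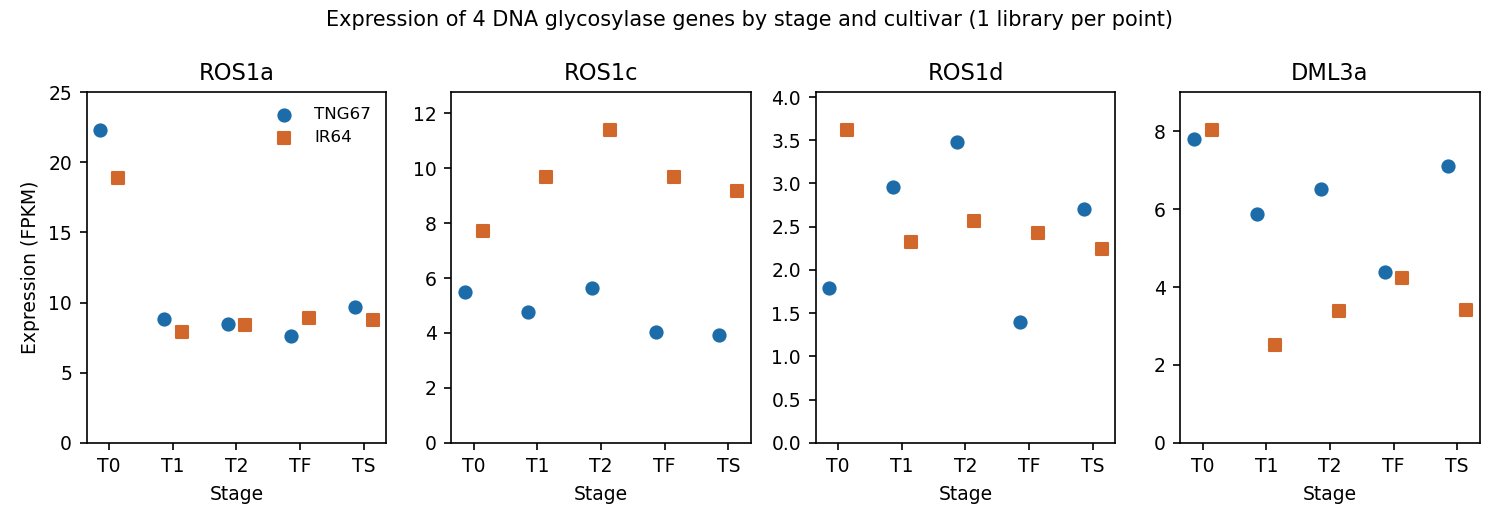
FPKM of the 4 glycosylase genes that passed the filter (vertical axes, each from 0) at the 5 stages, with TNG67 as circles and IR64 as squares, 1 library per point. ROS1a is at 7.60 to 9.68 FPKM in all calli, against 22.3 and 18.9 in the TNG67 and IR64 embryos, ROS1c is higher in IR64 at each stage, and DML3a is higher in TNG67 at T1, T2 and TS.

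ROS1c was set apart by cultivar rather than by stage. In TNG67 it stood at 5.50 FPKM in T0, 4.78 in T1, 5.65 in T2, 4.03 in TF and 3.93 in TS. In IR64 it stood at 7.70 FPKM in T0, 9.67 in T1, 11.4 in T2, 9.69 in TF and 9.18 in TS. The ranges of the cultivars did not overlap, and TNG67 was the lower in 5 of 5 stages. The share of all loci whose ranges part in this way was not counted. In callus TNG67 had 0.416 to 0.495 times the IR64 FPKM, and in the embryo 0.714 times.

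Over the 5 stages TNG67 minus IR64 was -0.87 for ROS1c (SE 0.16, limma adjusted p = 0.011), and ROS1c was 1 of 4 loci called against a background of 27.3%. On the 8 calli alone the difference was -0.98 (SE 0.12, 95% interval -1.28 to -0.68, limma adjusted p = 0.0045), with 2 of 4 loci called against 38.5%. The callus call held under all 18 alternatives, with limma adjusted p of 0.0016 to 0.039. The 5-stage call was lost without TNG67 T2 (limma adjusted p = 0.059), IR64 T2 (0.059), TNG67 TS (0.054) or IR64 TS (0.054). Leaving out either library of a stage takes the same pair out of these fits. The 2 results of a stage are therefore nearly the same and are not separate checks. The fit takes the stages of a cultivar as its replicates, so p measures steadiness over stages. Reads of both cultivars were mapped to the japonica genome, and a transcript level cannot be told apart here from how well the reads of a cultivar map.

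Between embryo and callus ROS1c had no called change. The mean of 4 callus stages minus embryo was 0.05 (SE 0.19, 95% interval -0.42 to 0.52, limma adjusted p = 0.84). The IR64 calli all lay above their embryo, at 1.19 to 1.48 times its FPKM. In TNG67 the callus levels were 0.716 to 1.03 times that of the embryo, with only T2 above it. The difference between the cultivars in this change was -0.56 (SE 0.33, limma adjusted p = 0.34) and was not called. That fit did not pair the cultivars by stage. Within a stage TNG67 minus IR64 on log2(FPKM + 1) was -0.42 in T0, against -0.89 in T1, -0.90 in T2, -1.09 in TF and -1.05 in TS. With 1 embryo library per cultivar, a missing call does not show that the change was the same in both.

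DML3a, a further glycosylase of the family, had close levels in both embryos and was higher in TNG67 than in IR64 callus. In TNG67 it stood at 7.80 FPKM in T0, 5.87 in T1, 6.51 in T2, 4.38 in TF and 7.12 in TS. In IR64 it stood at 8.04 FPKM in T0, 2.50 in T1, 3.39 in T2, 4.23 in TF and 3.40 in TS. On FPKM as deposited, every callus lay below its embryo. The TNG67 calli, from 4.38 to 7.12 FPKM, did not overlap with the IR64 calli, from 2.50 to 4.23, although the TF libraries nearly met. How many of all loci part in this way was not counted. As for ROS1c, a level in a cultivar cannot be told apart here from how well its reads map to the japonica genome.

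In the 4 callus stages TNG67 minus IR64 was 0.67 for DML3a (SE 0.20, 95% interval 0.16 to 1.17, limma adjusted p = 0.0495), higher in TNG67 in 4 of 4 stages. This call sits at the threshold and was lost in 13 of 18 alternatives, with limma adjusted p of 0.0085 to 0.18 over all of them. Leaving out TNG67 T1, TNG67 T2 or TNG67 TS gave limma adjusted p of 0.14, 0.18 and 0.17, and leaving out IR64 T1, IR64 T2 or IR64 TS gave 0.14, 0.18 and 0.17. These values repeat because either library of a stage takes the same pair out of the fit, so the alternatives are not all separate checks. Over all 5 stages the difference was 0.53 (SE 0.21, limma adjusted p = 0.11), and it was called only without either embryo library (limma adjusted p = 0.049 for each).

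Against the embryo DML3a in the 4 callus stages had a log2 difference of -0.71 (SE 0.27, 95% interval -1.35 to -0.06, unadjusted p = 0.036 and adjusted p = 0.085 by limma). On FPKM as deposited it was lower in 8 of 8 calli. It did not pass the adjusted threshold in any of the 20 alternatives, where limma adjusted p was 0.055 to 0.43. Summed FPKM was 1063010 in the TNG67 embryo and 625780 to 710922 in the TNG67 calli. Scaling to these sums was not tried, and the direction of DML3a in TNG67 can depend on it. The change differed between TNG67 and IR64 by 0.71 (SE 0.42, limma adjusted p = 0.34). For this test of a difference between cultivars, 0 of 4 loci were called against a background of 4.17%. An unadjusted limma p under 0.05 was seen in 0 of 4, against 5526 of 22913 loci in all. For callus against embryo itself, 10596 of 22913 loci had an unadjusted limma p under 0.05. Each embryo library was the reference for 4 of the 8 calli there.

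ROS1d, which lies on chromosome 5 like ROS1c, was the lowest of the 4 expressed loci. In TNG67 it stood at 1.79 FPKM in T0, 2.96 in T1, 3.48 in T2, 1.40 in TF and 2.70 in TS. In IR64 it stood at 3.62 FPKM in T0, 2.33 in T1, 2.56 in T2, 2.43 in TF and 2.24 in TS. The IR64 embryo was above all IR64 calli, while in TNG67 the embryo was below T1, T2 and TS and above TF. The callus to embryo difference averaged -0.05 over the cultivars (SE 0.27, limma adjusted p = 0.90), and it differed between TNG67 and IR64 by 0.80 (SE 0.45, limma adjusted p = 0.32). TNG67 minus IR64 was -0.09 over the 5 stages (SE 0.22, limma adjusted p = 0.77) and 0.06 in the calli (SE 0.19, limma adjusted p = 0.81).

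ROS1b and DML3b had little or no signal. ROS1b was listed at 0 in all 10 libraries. DML3b was listed at 0 in T0 and T1 of both cultivars. In TNG67 it reached 0.0227 FPKM in T2, 0.144 in TF and 0.0203 in TS, and in IR64 0.0205 in T2, 0.0294 in TF and 0.0388 in TS. Its highest value, in TNG67 TF, exceeded 10.5% of the loci above 0 in that library. A value of 0 can be a failed estimate, and unique alignment discards reads shared with a near-identical copy. Whether either bears on ROS1b and DML3b was not tested. Neither locus passed the filter. When the filter was dropped DML3b was fitted in 13 comparisons and called in 0 of them, with limma adjusted p of 0.0857 to 1.0, and ROS1b, at 0 throughout, could not be fitted.

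The order of the genes was the same in embryo and callus of TNG67 and differed between embryo and callus of IR64. In both embryos the order of FPKM was ROS1a, DML3a, ROS1c and ROS1d, with DML3a and ROS1c close in IR64 at 8.04 and 7.70. In all 4 TNG67 calli that order remained, at 7.60 to 9.68 FPKM for ROS1a, 4.38 to 7.12 for DML3a, 3.93 to 5.65 for ROS1c and 1.40 to 3.48 for ROS1d. The ranges of DML3a and ROS1c overlapped there. In all 4 IR64 calli ROS1c came first, at 9.18 to 11.4 FPKM, followed by ROS1a at 7.93 to 8.89, DML3a at 2.50 to 4.23 and ROS1d at 2.24 to 2.56. The last 2 ranges overlapped, and the first 2 did not.

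Ratios within a library do not depend on how libraries are scaled. ROS1a over ROS1c in TNG67 was 4.06 in T0, 1.84 in T1, 1.50 in T2, 1.88 in TF and 2.46 in TS. In IR64 the ratio was 2.46 in T0, 0.820 in T1, 0.735 in T2, 0.917 in TF and 0.950 in TS. It was lower in callus than in the embryo of its cultivar in 8 of 8 calli, by 1.65 to 2.71 times in TNG67 and 2.59 to 3.34 times in IR64. These ratios have 1 library each and no test.

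Summed over the 6 loci, the family had 37.4 FPKM in T0, 22.4 in T1, 24.1 in T2, 17.6 in TF and 23.5 in TS of TNG67. In IR64 the sum was 38.3 FPKM in T0, 22.4 in T1, 25.8 in T2, 25.3 in TF and 23.6 in TS. These sums use FPKM as deposited, and their order between embryo and callus can depend on how libraries are scaled. ROS1a made up 35.1 to 43.3% of the sum in TNG67 calli, against 59.7% in the TNG67 embryo. It made up 32.5 to 37.0% in IR64 calli, against 49.4% in the IR64 embryo. ROS1c made up 16.8 to 23.4% of the sum in TNG67 calli and 38.4 to 44.3% in IR64 calli.

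**Figure D2:**
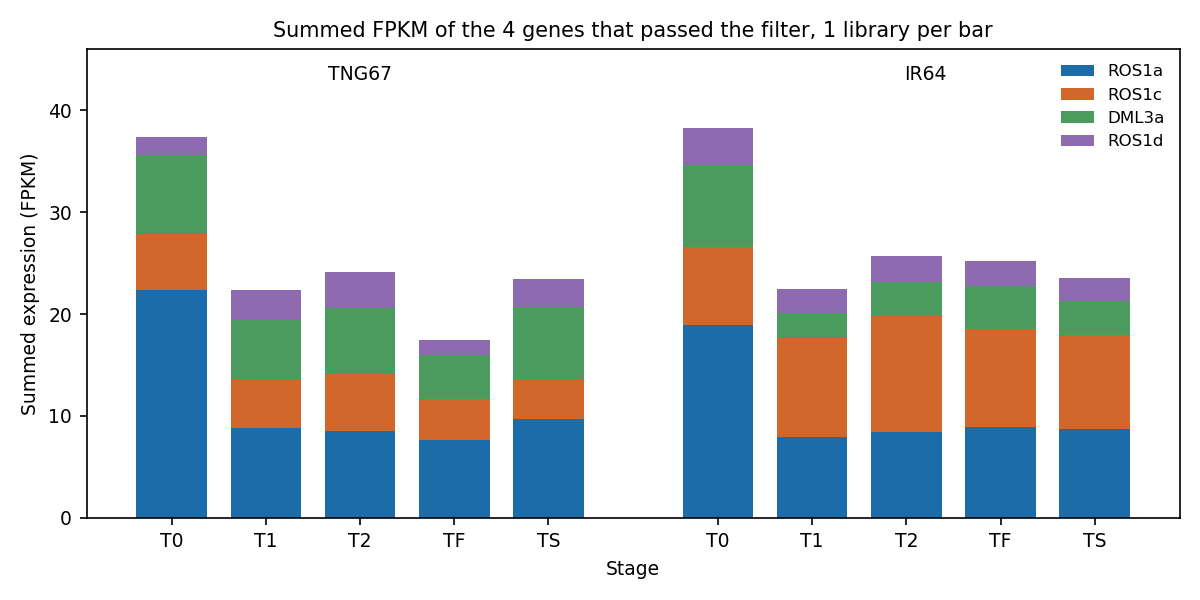
Summed FPKM (vertical axis, from 0) of ROS1a, ROS1c, DML3a and ROS1d in each library, with TNG67 on the left and IR64 on the right and stages along the horizontal axis. The embryo bars are the tallest in both cultivars, the TNG67 TF bar is the shortest, and the ROS1c segment is larger in IR64 than in TNG67 calli.

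Failed against successful callus is the comparison that bears on regeneration, since TF and TS shared a medium and differed in outcome. For ROS1a, TNG67 had 7.60 FPKM in TF and 9.68 in TS, and IR64 had 8.89 in TF and 8.72 in TS. For DML3a, TNG67 had 4.38 FPKM in TF and 7.12 in TS, and IR64 had 4.23 in TF and 3.40 in TS. For ROS1d, TNG67 had 1.40 FPKM in TF and 2.70 in TS, and IR64 had 2.43 in TF and 2.24 in TS. In each of these 3 genes TF was the lower in TNG67. In IR64 TF was the higher in DML3a, while ROS1a and ROS1d were nearly level. On log2(FPKM + 1) TF minus TS in IR64 was 0.024 for ROS1a and 0.083 for ROS1d, against 0.070 for ROS1c. ROS1c was nearly level, at 4.03 FPKM in TF and 3.93 in TS of TNG67 and at 9.69 and 9.18 in those of IR64.

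No glycosylase locus was called for TF against TS by limma, and 0% of all loci were called. The fitted TF minus TS was -0.14 for ROS1a (95% interval -0.66 to 0.37), 0.05 for ROS1c (-0.54 to 0.64), -0.27 for ROS1d (-1.10 to 0.56) and -0.17 for DML3a (-0.99 to 0.64). The lowest unadjusted p among the 4 was 0.46, and 960 of 22913 loci had one under 0.05. Ratios of FPKM + 1 between single libraries showed 0 of 4 loci at 2-fold or more in either direction, where 13.3% of loci reached this in TNG67 and 12.8% in IR64. These intervals are wide, so a missing call does not show that TF and TS had equal levels.

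Whether failed callus departed from the other calli differently in the cultivars was tested with T1, T2 and TS as the replicates of a cultivar. The effect of TF in TNG67 minus that in IR64 was -0.77 for ROS1d (SE 0.29, unadjusted p = 0.033 and adjusted p = 0.24 by limma). For DML3a it was -0.83 (SE 0.33, unadjusted p = 0.041 and adjusted p = 0.27 by limma). For ROS1a it was -0.30 (SE 0.27, limma adjusted p = 0.67) and for ROS1c -0.14 (SE 0.35, limma adjusted p = 0.89). None of the 4 passed the adjusted threshold, against a background of 2.55%. An unadjusted limma p under 0.05 was seen in 2 of 4, against 3811 of 22913 loci in all. Within a stage, TNG67 minus IR64 for ROS1d was -0.52 in TF, against 0.25 in T1, 0.33 in T2 and 0.19 in TS. For DML3a it was 0.04 in TF, against 0.97 in T1, 0.77 in T2 and 0.88 in TS. Among the 4 callus stages the TF pair was the lowest for both genes, and for ROS1d the only pair with TNG67 below IR64. With each stage as a pair of cultivars (a fit added after the data were seen, with 2 residual degrees of freedom) the SE was 0.26 for both genes. The limma adjusted p was then 0.22 for ROS1d and 0.20 for DML3a, again without a call. That SE borrows from all loci and is wider than the spread of these 3 pairs alone, so a missing call does not show that TF had the same effect in both cultivars.

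Among the calli the remaining comparisons also gave no calls. For T2 against T1, TF against T2 and TS against T2 limma called 0 of 4 glycosylase loci and 0% of all loci. None of the 4 had an unadjusted p under 0.05, and the lowest was 0.42, 0.21 and 0.19 in that order. Loci with an unadjusted p under 0.05 numbered 653, 1008 and 224 of 22913.

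**Figure D3:**
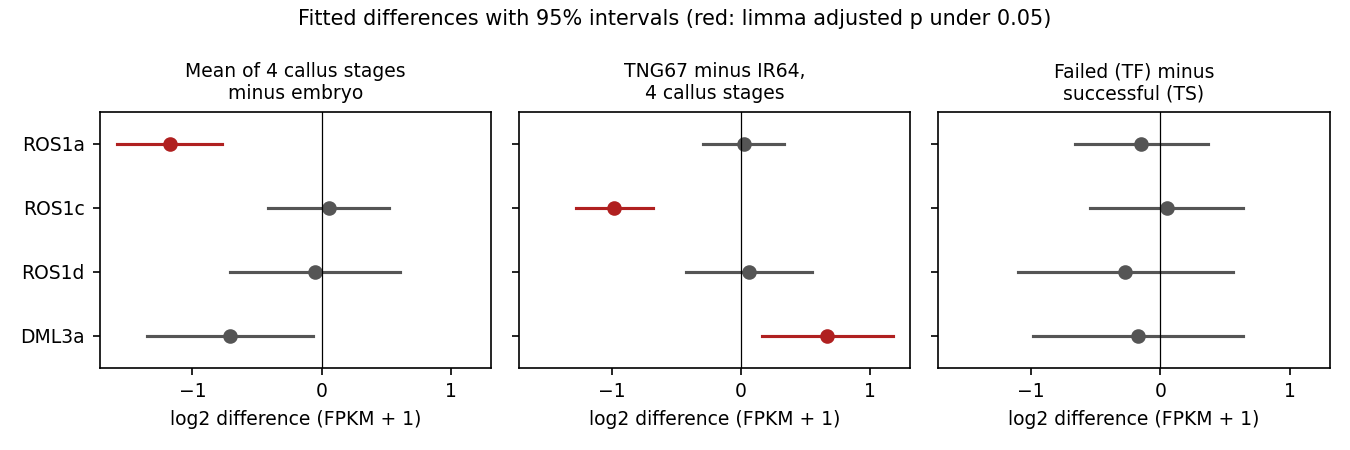
Fitted log2 differences (horizontal axis, FPKM + 1) for the 4 genes in 3 comparisons, with lines for 95% intervals and red for limma adjusted p under 0.05. ROS1a is lower in callus than in embryo at -1.18, ROS1c is lower in TNG67 than in IR64 callus at -0.98, DML3a is at 0.67 in that comparison, and all 4 intervals for TF minus TS cross 0.

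Within a cultivar, single libraries were also compared at 2-fold on FPKM + 1, with no p-value. In TNG67 ROS1a was the 1 locus of 4 at least 2-fold lower than in the embryo at each callus stage, where 23.0% of loci reached this in T1, 21.5% in T2, 20.6% in TF and 19.1% in TS. In IR64 ROS1a and DML3a reached it in T1, T2 and TS, against 20.6%, 19.5% and 18.5% of loci, and ROS1a alone in TF, against 16.4%. Some of these lay just over the cutoff, such as ROS1a in IR64 at 2.01-fold in TF and 2.05-fold in TS. DML3a in IR64 was at 2.06-fold in T2 and 2.05-fold in TS. Among 16 pairs of gene and callus stage this made 4 in TNG67 and 7 in IR64, which repeat ROS1a, and in IR64 also DML3a, against a single embryo library. With a pseudocount of 5 the numbers became 2 and 0, and after quantile normalization 1 and 3. None of the 16 pairs in either cultivar reached 4-fold, the cutoff that the labels name for differential expression.

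No setting turned the direction of the leading differences, but most of them could not have done so. ROS1a was below its embryo in every callus, and ROS1c and DML3a kept the same sign in every callus pair. Leaving out a library therefore could not turn the sign. Settings of filter, moderation and rows left the fitted difference as it was. The ROS1a difference between callus and embryo ran from -1.28 to -0.92 over 20 alternatives, and the ROS1c difference between cultivars in callus from -1.11 to -0.64 over 18. The DML3a difference between cultivars in callus kept its sign in all 18 alternatives, at 0.39 to 0.88.

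**Figure D4:**
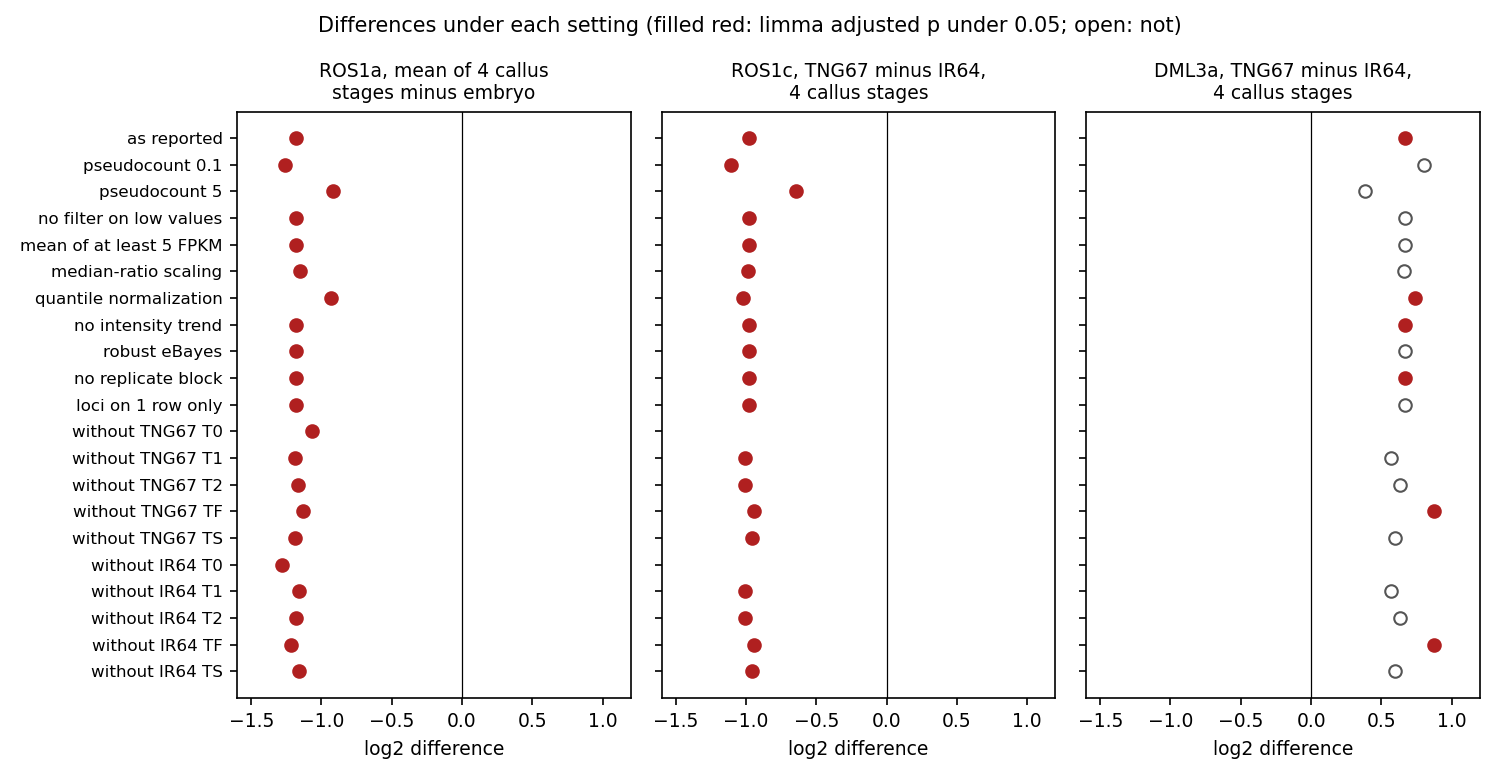
Log2 differences (horizontal axis) of ROS1a, ROS1c and DML3a as reported and under each alternative setting or with 1 library left out (rows), filled red where limma adjusted p is under 0.05. ROS1a and ROS1c are filled in every row that was fitted (embryo libraries are not in the callus fits), while DML3a is open in 13 rows.

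The loci most like the 2 most abundant glycosylase genes were sought by Pearson's r of log2(FPKM + 1) over the 10 libraries, among 14306 loci with a mean of at least 5 FPKM. These are descriptions, since the libraries share stages and cultivars. For ROS1a they were LOC_Os02g57420 on chromosome 2 (r = 0.995) and LOC_Os11g31640 on chromosome 11 (r = 0.994). LOC_Os02g57420 stood at 6.84 to 11.1 FPKM in the calli, against 80.1 in the TNG67 embryo and 46.6 in the IR64 embryo. For ROS1c they were LOC_Os01g63910 on chromosome 1 (r = 0.978) and LOC_Os06g43150 on chromosome 6 (r = 0.965), both of them higher in IR64 at each stage. LOC_Os01g63910 ranged from 1.74 to 3.92 FPKM in the TNG67 libraries, against 6.63 to 15.6 FPKM in the IR64 libraries. The table gives no names for these loci.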

How the data were processed

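RNA of 10 rice libraries (2 cultivars, 5 stages) was analysed, and the 10 bisulfite libraries were not analysed here. Per the labels' protocols, 100 ng of RNA was used, reads were checked with FastQC and mapped with Bowtie to IRGSP-1.0 allowing 2 mismatches, unique alignments were kept, and TopHat gave the FPKM values the authors deposited. The TNG67 T1 label carries the bisulfite protocol instead. Not given in the sources used here are tool versions, gene models and the strandedness of counting. Of 45 pairs of libraries, 1 had over 10% of its ratios of low values (up to 0.2 FPKM) in a single step, so whole reads were not recovered and depth is unknown.

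Rows of 968 loci on several rows were summed (55166 rows). limma 3.58.1 (R 4.3.3) was fitted to log2(FPKM + 1), with moderation that followed mean intensity and p-values adjusted by Benjamini-Hochberg over 22913 loci at 0.05, and tested on simulated data. Fold changes on this scale understate changes of low loci. Residual degrees of freedom were 4, and 3 on the calli alone. Tests of differences between cultivars had 6 (callus against embryo) and 4 (TF against other calli). Other steps used Python 3.11.15 and pandas 2.3.3. All 6 loci were to be named, with the 2 loci most like each of the 2 most abundant. The members, lists and tests were chosen with earlier results of these data known. The ratios between genes within a library were chosen after their values were seen. The RefSeq table (ASM3414082v1) held 0 of 54170 identifiers, so repair enzymes and tissue markers, listed by product name, could not be found. The 9 methyltransferase loci were listed by identifier, but no source used here pairs those identifiers with names, and they were not analysed here.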

Additional observations from a re-analysis of the deposited data

Results flagged for a closer look

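The level of ROS1d relative to ROS1c lay above the embryo in every TNG67 callus and below it in every IR64 callus. In TNG67 the ratio of ROS1d to ROS1c was 0.325 in T0, 0.619 in T1, 0.616 in T2, 0.347 in TF and 0.686 in TS, so callus over embryo ran from 1.07 in TF to 2.11 in TS. In IR64 it was 0.471 in T0 and 0.225 to 0.251 in the calli, so callus over embryo ran from 0.478 to 0.533. The difference in this ratio was not tested, and the TNG67 TF callus was close to its embryo.

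Between failed and successful callus 3 genes had opposite signs in the cultivars, with 1 library on each side. In IR64, however, ROS1a and ROS1d were nearly level, with values about as small as the 0.070 of ROS1c. TF against TS on log2(FPKM + 1) was -0.31 in TNG67 and 0.024 in IR64 for ROS1a. It was -0.62 in TNG67 and 0.083 in IR64 for ROS1d, and -0.59 in TNG67 and 0.25 in IR64 for DML3a. The difference between the cultivars in TF against TS itself was not tested. The nearest test, TF against the other calli, called none of the 3.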

How the results depend on the processing

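The alternatives were a pseudocount of 0.1 or 5, scaling by median ratios or by quantile normalization, no filter or one on a mean of 5 FPKM (which removed ROS1d), moderation that was robust or had no intensity trend, a fit with no replicate block, only loci on 1 row, and each library left out. Counts of glycosylase loci called fell to 0 for TS against T0 without the replicate block. For TNG67 against IR64 in callus the count fell to 1 with either pseudocount, median-ratio scaling, robust moderation, loci on 1 row only, no filter or the filter on a mean of 5 FPKM, and stayed at 2 without the intensity trend, after quantile normalization and without the replicate block. The pairs of gene and callus stage at least 2-fold lower than in the embryo became 2 (TNG67) and 0 (IR64) with a pseudocount of 5. They became 1 and 3 after quantile normalization, and 0 and 0 at 4-fold.

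With 1 library left out, the counts ranged from 0 to 1 for T1, T2, TF and TS against T0, from 0 to 2 for TNG67 against IR64 over 5 stages and from 1 to 2 in callus. A stage left with 1 library is assumed to vary like the others. Among callus against embryo, TF against TS and the cultivar differences, those that changed sign when a library was left out were uncalled. Some uncalled differences between single stages, whose values are not given, also changed sign. For callus against embryo they ranged from -0.225 to 0.333 for ROS1c and from -0.449 to 0.347 for ROS1d. For TF against TS they ranged from -0.31 to 0.0206 for ROS1a, -0.0873 to 0.186 for ROS1c and -0.475 to 0.129 for DML3a. For TNG67 against IR64 they ranged from -0.201 to 0.0643 for ROS1d over 5 stages, and in callus from -0.0246 to 0.257 for ROS1d and -0.0175 to 0.095 for ROS1a. The causes were not tested. With stage as a replicate block, an alternative chosen after seeing the data, the tests of a difference between cultivars called 0 of 4 genes, as before. Over all loci the calls fell to 0, against 955, for callus against embryo, and to 4, against 585, for TF against other calli. The tests of a difference between cultivars could not be fitted with an embryo library left out (callus against embryo) or a TF library left out (TF against other calli). Depth being unknown, no counting interval can be given for any level.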

Other observations

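Position was read from the order of identifiers, since no coordinates of the build in question were used. ROS1c and ROS1d are separated by 5 identifiers on chromosome 5, of which 3 were listed at 0 in all libraries and 2 passed the filter, with maxima up to 39.3 FPKM. ROS1b and DML3a are separated by 13 identifiers on chromosome 2, of which 6 were listed at 0 everywhere and 5 passed the filter. Of the 10 loci nearest to ROS1a, 7 passed the filter, and 3 of these had a mean callus level below the embryo in both cultivars while 2 had one above. The shares of all tested loci below or above in both cultivars were not counted, so these counts say nothing particular about the neighbours. Of the 10 nearest to DML3b, 3 passed the filter and 3 were listed at 0 everywhere.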
